A study of Rattus norvegicus with 6 samples.

Results

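Drd3 nuclei were picked out of single-nucleus RNA-seq of the nucleus accumbens shell, a region of the ventral striatum known for its part in motivated behaviour. The animals were adult Long-Evans rats. A kept nucleus had at least 500 UMIs (unique molecular identifiers, each a counted RNA molecule), at least 300 genes and under 5% mitochondrial UMIs. A nucleus was selected when at least 3 of the 6 genes Drd3, Hpse, Epha3, Tll1, Slfn5 and Rreb1 had a UMI, at least one of Drd3, Hpse and Tll1 was among them, and Pde10a had under 5 UMIs. This rule selected 1303 of 37456 kept nuclei, or 3.48% (95% Wilson interval 3.30 to 3.67). The nuclei were thus chosen by the counts of these 7 genes, so their levels are descriptions and carry no test.

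The groups were 3 female pools and 3 male pools. No treatment, transgene or mutation is named for either, and all animals were 90 to 100 days old. Each pool joined shell tissue of 4 animals of 1 sex, 24 animals in all, so the spread between pools is not the spread between animals. The records were written in 2 ways: female pool 3 and male pool 1 carry one wording, called set A here, and female pools 1 and 2 and male pools 2 and 3 the other, called set B. The labels do not say what the split stands for. Wherever a sentence lists 3 values for a sex, they are those of pools 1, 2 and 3 in this order.

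The dopamine D3 receptor, encoded by Drd3, couples to inhibitory G proteins and lowers cyclic AMP. In the rat it is most abundant in the islands of Calleja, dense clusters of small GABAergic granule cells in the olfactory tubercle and along the border of the accumbens, and it is also found in medium spiny neurons of the shell. Medium spiny neurons are the GABAergic projection neurons of the striatum, rich in the phosphodiesterase Pde10a and divided into types with the dopamine receptor D1 or D2. The working name of the selected nuclei, granule-like neurons, refers to cell size and place, neither of which was measured in isolated nuclei.

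The libraries held 2873 to 16504 kept nuclei each, with medians of 3131 to 5049 UMIs. Set A libraries were larger (16504 and 8795 kept nuclei) than set B libraries (2873 to 3168). Barcodes that failed the mitochondrial limit made up 1.55% and 2.28% of set A libraries, against 13.1% to 40.7% of set B libraries. Pairs of libraries shared 0 to 51 barcodes, at most 0.645% of the smaller library. Summed over Drd3 nuclei, the Pearson correlation of log2 CPM (CPM, counts scaled to a common total of UMIs in the summed class) between pools was 0.757 to 0.969, a description across genes that are not independent, and the set A pair had 0.969. The numbers of Drd3 nuclei were 69, 68 and 615 in the female pools and 356, 102 and 93 in the male pools. They held 7064763 UMIs in all, with a median of 4009 per nucleus.

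When all kept nuclei were clustered with the 6 selecting genes, Pde10a and Esr1 left out, 782 of the 1303 Drd3 nuclei (60.0%) fell in 1 of 41 clusters, called the main cluster here. It held 1229 nuclei, 63.6% of them selected. The remaining 521 Drd3 nuclei (40.0%) were spread over other clusters, many of them led by genes of other cell types. A cluster with Slc17a7, the vesicular glutamate transporter of cortical-type excitatory neurons, among its leading genes held 82, and 99.8% of that cluster came from set A. Some clusters had glial genes among their leading genes. Those with the astrocyte transporters Slc1a2 and Slc1a3 and with the myelin genes Mog and Opalin held 65 and 59. Those with the microglial gene Ctss and with Pdgfra, a receptor of oligodendrocyte precursors, held 44 and 44. Dnah12 and Tmem212 ranked above the myelin genes in theirs, and Ikzf1 ranked above Ctss. These clusters with glial leading genes also had 8410 to 9825 CPM of the 16 spiny neuron identity genes used below, of which Ikzf1 is one. Of their nuclei, 26.5% to 42.3% were among the highest doublet scores. A cluster of 1796 nuclei also had Slc1a2 and Slc1a3 among its leading genes, with 2257 CPM of those spiny neuron genes, and held 6 Drd3 nuclei. Another, of 1860 nuclei led by Opalin and Mog, had 1771 CPM and held 3.

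These scattered nuclei were deeper and more often had high doublet scores than main-cluster Drd3 nuclei. Their median was 6848 UMIs, against 3080.5 in the main cluster. Among the highest doublet scores were 17.1% of them, against 2.05% of main-cluster Drd3 nuclei. That share was 8.27% in all unselected kept nuclei, and 12.7% and 16.3% in the D1 and D2 nuclei defined below. The scattered share was 26.1%, 19.1% and 54.3% of Drd3 nuclei in the female pools and 36.0%, 9.80% and 19.4% in the male pools. Taken by label set, it was 47.6% in set A and 17.8% in set B. Comparisons of sex below are given for all Drd3 nuclei and for the main cluster. Those with D1 and D2 nuclei are given for the main cluster, with the calls that differ in all Drd3 nuclei beside them. The part of mixed droplets in any of them was not tested.

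Drd3 nuclei were set beside medium spiny neurons. D1 nuclei were 1138 unselected nuclei with at least 5 Pde10a UMIs, a Drd1 UMI and no Drd2 UMI, and D2 nuclei were 5514 such nuclei with a Drd2 UMI and no Drd1 UMI. Summed levels of marker lists differed between main-cluster and scattered Drd3 nuclei. Over the 6 pools, 6 oligodendrocyte markers summed to 290 to 441 CPM in main-cluster Drd3 nuclei, 966 to 1280 CPM in scattered ones and 378 to 658 CPM in D1 nuclei. The 6 astrocyte markers summed to 54.8 to 130 CPM in the main cluster, 305 to 451 CPM among scattered nuclei and 77.4 to 144 CPM in D1 nuclei. The 6 oligodendrocyte precursor markers gave 82.1 to 132, 322 to 648 and 75.0 to 236 CPM in the same order, and the 6 microglial markers 37.0 to 116, 80.7 to 169 and 46.2 to 65.3 CPM. The 6 glutamatergic markers gave 0 to 45.2 CPM in the main cluster, 0 to 204 CPM among scattered nuclei and 32.9 to 88.8 CPM in D1 nuclei. The ranges of the main cluster and of D1 nuclei overlapped for all 5 lists, and in every pool the scattered nuclei had more of each glial list than the main cluster.

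**Figure D1:**
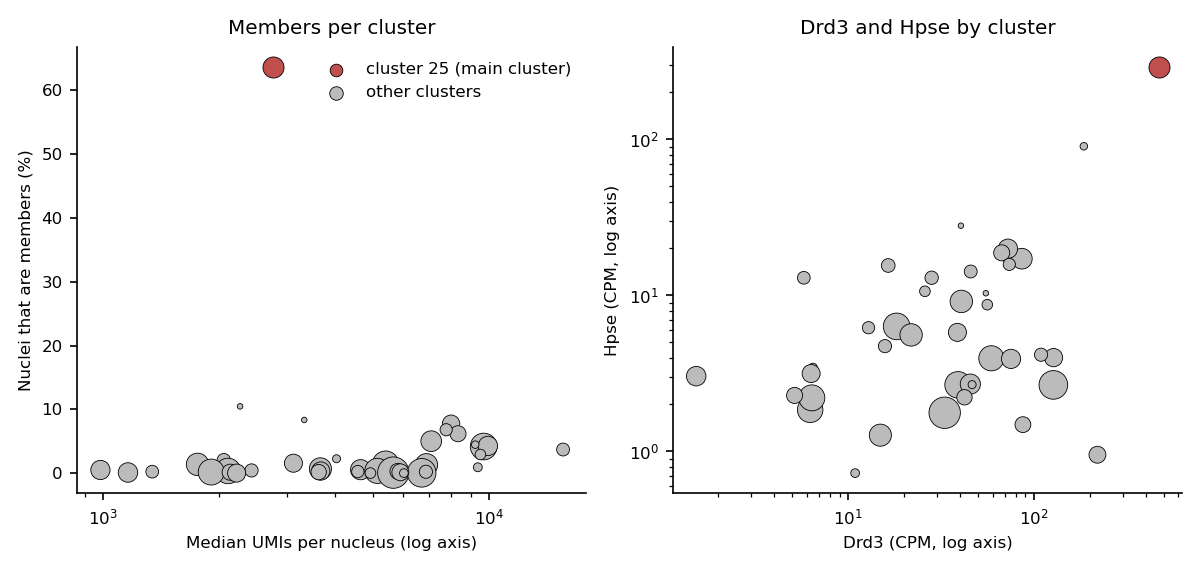
Left, the percent of each of the 41 clusters that were Drd3 nuclei (members), against the median UMIs of its nuclei. Right, summed Hpse against summed Drd3 in CPM for each cluster on log axes, with point area by number of nuclei and the main cluster in red. The main cluster stands alone, with 63.6% members, 470 CPM Drd3 and 290 CPM Hpse.

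The rule has 2 edges, and the nuclei near them were mostly outside the main cluster. Of the Drd3 nuclei, 602 had exactly 3 of the 6 genes, and 48.0% of these were in the main cluster, against 72.6% of the 95 with all 6. By Pde10a, 554 had no UMI of it, with 73.3% in the main cluster, and 111 had 4 UMIs, with 33.3% there. Just outside the rule were 1312 nuclei with 2 of the genes, of which 13.0% were in the main cluster, and 101 nuclei that met the gene count but had 5 Pde10a UMIs, of which 32.7% were. In all, Pde10a alone kept out 2153 nuclei with a median of 14304 UMIs, and 4.13% of them were in the main cluster. Of the 447 main-cluster nuclei that were not selected, 358 had too few of the genes and were shallow (median 1942 UMIs), and 89 had 5 or more Pde10a UMIs (median 6483 UMIs).

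The genes that stand for the name of the nuclei are Drd3, Hpse, Tll1, Epha3 and Esr1, and the main cluster ranked first of 41 for each. The first 4 are selecting genes and the main cluster was the one with the most selected nuclei, so their ranks describe it and do not check the name. Esr1 is the one gene of the 5 outside the rule. Drd3 stood at 470 CPM there, with 220 CPM in the next cluster. Hpse, the heparanase that cuts heparan sulfate chains, stood at 290 CPM against 90.4 CPM. Tll1, a tolloid-family metalloprotease of the extracellular matrix, stood at 415 CPM against 151 CPM, and Epha3, a receptor tyrosine kinase for ephrin-A ligands, at 2898 CPM against 1142 CPM. Esr1, the estrogen receptor alpha gene, was not used by the rule or the clustering and had a narrow lead of 99.6 over 91.5 CPM. Slfn5, of the Schlafen family, was also first (189 against 167 CPM). Rreb1, a zinc finger transcription factor, ranked behind 4 other clusters at 161 CPM. The highest, at 270 CPM, had 2425 CPM of the 6 microglial markers. Those at 236 and 224 CPM had 3305 and 2893 CPM of the 6 astrocyte markers. This selecting gene was thus higher in glial clusters than in the main cluster. Pde10a ranked 34th at 415 CPM, and Meis2, a homeobox factor of spiny neurons, ranked 40th at 184 CPM.

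Beyond the rule, the genes that led the main cluster included Exph5, Stac, Lgr6, Wnt2, Baz1a, Neb, Tcerg1l, Fstl1 and Prok2. Most like it was a small cluster of 157 nuclei (Pearson r = 0.939 over 8498 genes, a description across genes) with a median of 9231 UMIs. That cluster shared Lgr6, Exph5, Tcerg1l, Wnt2, Stac and Baz1a among its leading genes, and 7 of its nuclei met the rule. It was the next cluster after the main one for Hpse, Tll1 and Epha3. Its Pde10a stood at 2547 CPM, against 415 CPM in the main cluster, and its Meis2 at 1667 against 184 CPM. Its spiny neuron identity genes, which include these 2, summed to 12355 against 7618 CPM. Of its nuclei, 12.1% were among the highest doublet scores, against 2.03% of the main cluster. The part of the Pde10a limit in the low number selected was not tested, nor was the part of mixed droplets in this cluster. Over the 41 clusters, the 5 genes whose level followed that of Drd3 most closely were Ctnnbip1 (r = 0.860), Slco5a1 (0.851), Prkar2b (0.839), Htr4 (0.836) and Chrm4 (0.833). The selecting genes followed it less, from Epha3 at 0.620 to Rreb1 at 0.274. The clusters share libraries, so these r values are descriptions.

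Drd3 in main-cluster Drd3 nuclei was 371, 609 and 520 CPM in the female pools and 550, 532 and 380 CPM in the male pools. In scattered Drd3 nuclei it averaged 196 ± 56.0 CPM (SD, n = 6 pools), in D1 nuclei 112 ± 16.2 CPM and in D2 nuclei 40.2 CPM. Every main-cluster pool was above every pool of scattered, D1 and D2 nuclei, and the female and male pools overlapped. Hpse separated the classes further, at 400, 438 and 366 CPM in the female pools and 316, 341 and 259 CPM in the male pools of the main cluster, against 70.0 ± 30.9 CPM in scattered Drd3 nuclei and 6.47 ± 5.99 CPM in D1 nuclei.

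**Figure D2:**
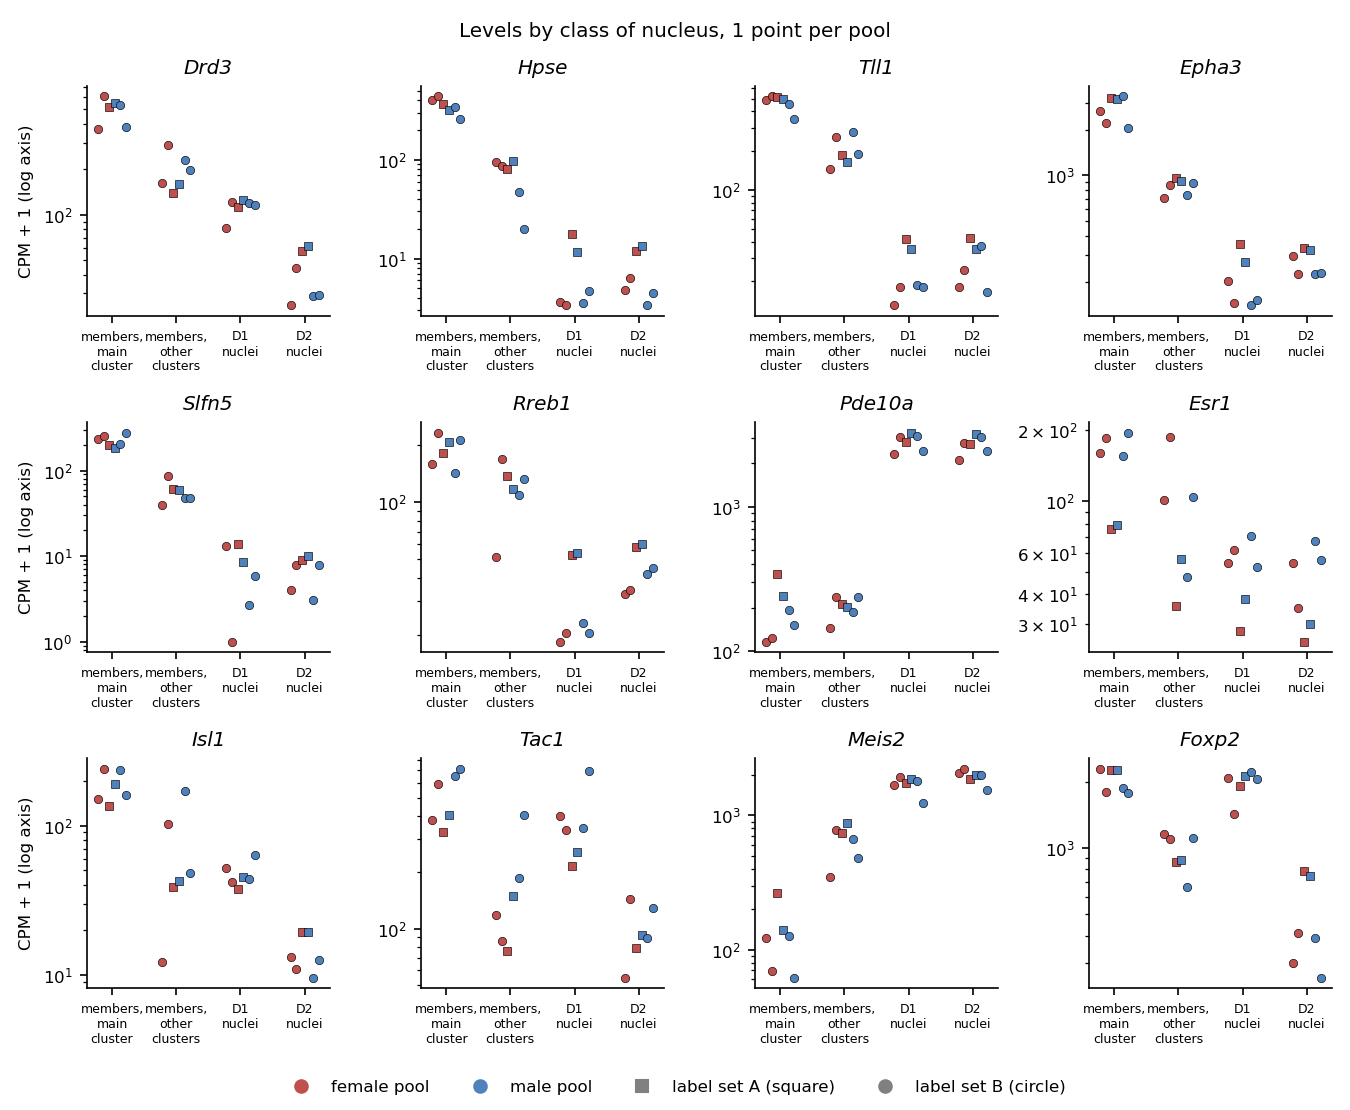
Level of 12 genes in CPM plus 1, on a log axis, in Drd3 nuclei of the main cluster, Drd3 nuclei of other clusters, D1 nuclei and D2 nuclei. Each point is 1 pool, red for female and blue for male, with squares for set A. For Drd3, Hpse and Tll1 the main-cluster points lie above those of every other class, and for Pde10a and Meis2 they lie below D1 and D2.

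Because depth differed, shares of nuclei with a UMI were also taken after thinning every nucleus to 1500 UMIs. A Drd3 UMI was seen in 80.7% of main-cluster Drd3 nuclei (53.0% thinned), 60.3% of scattered ones (26.7%), 50.8% of D1 nuclei (14.4%) and 23.4% of D2 nuclei (6.05%). Oligodendrocyte nuclei, 4199 nuclei with at least 4 oligodendrocyte markers and expected to lack the gene, had 2.29% (1.03% thinned) at a median of 2129 UMIs. Hpse gave 64.6% (38.5% thinned) in the main cluster, 39.9% (14.2%) in scattered nuclei, 5.80% (0.880%) in D1 nuclei and 0.929% (0.517%) in oligodendrocyte nuclei. Both shares were above the oligodendrocyte share in scattered Drd3 nuclei too, as the rule requires. In 1080 thinned main-cluster nuclei, selected or not, Drd3 was seen in 51.2% of those with an Hpse UMI and 43.9% of those without, and in 46.0% with and 46.4% without a Tll1 UMI.

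Esr1, outside the rule, was 159, 185 and 75.3 CPM in main-cluster Drd3 nuclei of the female pools and 77.6, 155 and 194 CPM in the male pools. In D1 nuclei it was 53.4, 60.5 and 26.9 CPM in the female pools and 37.2, 69.9 and 51.1 CPM in the male pools. The low pools in both classes were those of set A, female pool 3 and male pool 1, so the level moved with the label set. Within pools the log2 ratio of main-cluster Drd3 nuclei over D1 nuclei was 1.04 to 1.91. An Esr1 UMI was seen in 25.4% of main-cluster Drd3 nuclei and 27.6% of the deeper D1 nuclei. After thinning, the shares were 13.1% (95% Wilson interval 10.9 to 15.7) in the main cluster, 5.64% in scattered nuclei, 5.72% (4.51 to 7.22) in D1 nuclei, 4.18% in D2 nuclei and 2.39% in oligodendrocyte nuclei. Of 10 steroid receptor and estrogen genes, 2 were measured and Esr1 was the one past the fold, while in all Drd3 nuclei none of 3 was.

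Genes were then compared between Drd3 nuclei and D1 or D2 nuclei within each pool, as log2 ratios of CPM plus 1. A gene was past the fold when it differed 2-fold or more in the same direction in all 6 pools and averaged at least 50 CPM in the higher class. The selection used these same nuclei, so the ratios have no test. Those of the selecting genes, Drd1, Drd2 and Pde10a are set by the selecting and class rules. In all Drd3 nuclei, 97 of 4653 measured genes were higher than in D1 nuclei (2.08%) and 95 were lower (2.04%). Against D2 nuclei, 110 of 4657 were higher (2.36%) and 104 lower (2.23%). In the main cluster the numbers were 169 higher (3.61%) and 255 lower (5.45%) of 4682 against D1 nuclei, and 190 higher (4.06%) and 269 lower (5.75%) of 4679 against D2 nuclei. The median log2 ratio over all measured genes was 0.06 against D1 nuclei and 0.05 against D2 nuclei in the main cluster, so its centre lay near 0.

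With the selecting genes left out, Stac, an adaptor of voltage-gated calcium channels, had the highest median ratio over D1 nuclei among genes past the fold that have a gene name. In the main cluster it was 385, 410 and 431 CPM in the female pools and 442, 293 and 199 CPM in the male pools, against 14.7 ± 15.5 CPM in D1 nuclei (SD, n = 6 pools). A Stac UMI was seen in 37.8% of thinned main-cluster Drd3 nuclei and 1.85% of thinned D1 nuclei. Wnt2, a secreted Wnt ligand, averaged 88.1 ± 22.8 CPM in the main cluster and 3.94 ± 3.70 CPM in D1 nuclei, a median log2 ratio of 4.40. Zmat4, a zinc finger gene, averaged 1636 ± 293 CPM against 126 ± 67.2 CPM (3.56). For each of these 3 genes every main-cluster pool was above every D1 pool.

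The remaining genes with the highest ratios included signalling enzymes. Grk3, a kinase that desensitises G protein-coupled receptors, averaged 277 CPM in main-cluster Drd3 nuclei and 20.3 CPM in D1 nuclei, a median log2 ratio of 4.15. Pde3a, a phosphodiesterase inhibited by cyclic GMP, averaged 247 against 18.3 CPM (3.89), and Prkcq, protein kinase C theta, 274 against 17.4 CPM (3.88). Exph5, a Rab27 effector, Ankfn1, the lysophosphatidic acid receptor gene Lpar6, Cmtm8 and Tcerg1l were also among the 12 highest, with medians from 3.62 to 4.15. In all Drd3 nuclei, 9 of the 12 highest genes were the same, and Nos1, Sfmbt2 and the RNA-binding protein gene Msi2 took the other places, with medians of 3.16, 3.08 and 3.05. Against D2 nuclei, the main-cluster list also held Nrp2, a semaphorin receptor (735 ± 74.5 against 51.8 CPM, 4.12), the receptor tyrosine phosphatase Ptpro (1023 against 79.0 CPM, 3.98), the postsynaptic scaffold Homer2 (75.8 against 7.53 CPM, 4.11) and the potassium channel Kcnj6 (70.3 against 6.65 CPM, 3.94).

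The genes with the lowest ratios were near 0 or low in the main cluster. Slc24a4, a potassium-dependent sodium-calcium exchanger, was 0, 0 and 13.9 CPM in the female pools and 9.93, 0 and 8.64 CPM in the male pools, against 191 ± 29.9 CPM in D1 nuclei. It was also far below D2 nuclei, which averaged 280 CPM. The zinc finger genes Zfp385b and Zfp385d stood at 31.7 and 28.8 CPM in the main cluster, against 1011 and 676 CPM in D1 nuclei. Gpc6, a glypican, stood at 44.6 against 970 CPM, Plppr1 at 39.5 against 973 CPM and the carbonic anhydrase gene Ca12 at 5.14 against 281 CPM. Fign and Arhgap6 were low as well, at 4.10 against 58.4 CPM and 2.81 against 55.2 CPM. Against D2 nuclei, the serotonin receptor gene Htr2c was 52.7 CPM against 1321 CPM.

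**Figure D3:**
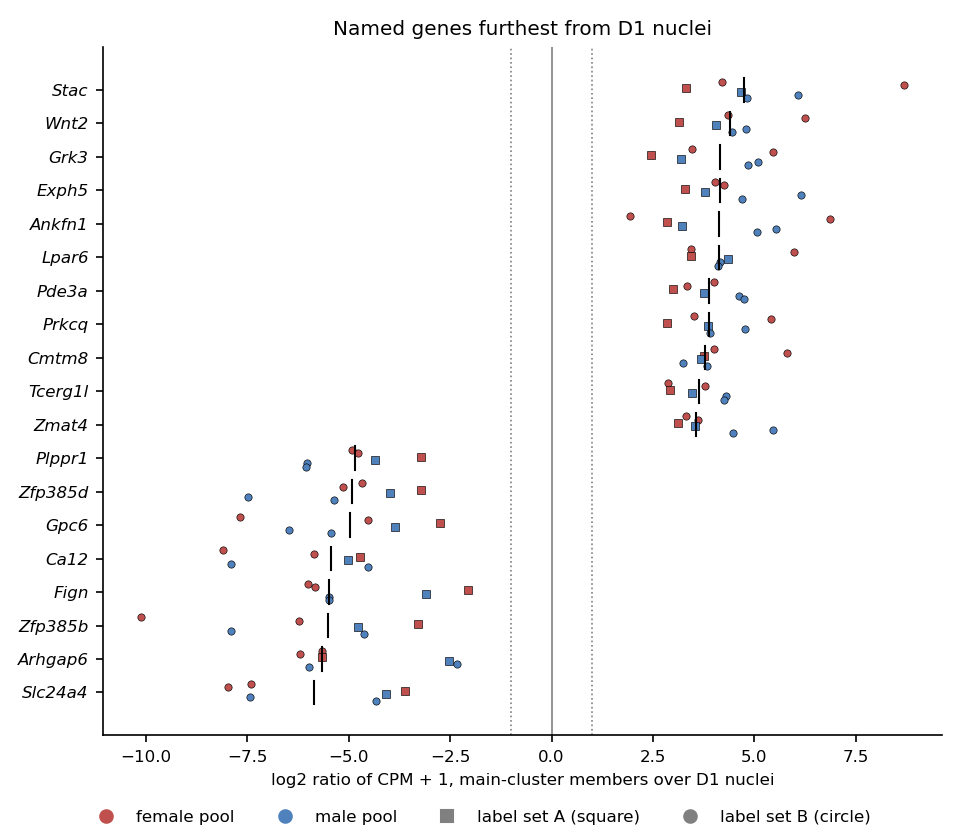
Log2 ratio of CPM plus 1 in main-cluster Drd3 nuclei over D1 nuclei for 11 higher and 8 lower genes among those with the largest median ratio. Each point is 1 pool, red for female and blue for male, the black line is the median, and dotted lines mark a 2-fold difference. All 6 pools lie on the same side for each gene, from a median of 4.74 for Stac to -5.86 for Slc24a4.

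Genes of spiny neuron identity were divided. Of 16 in the list, 14 were measured in the main cluster: none was past the fold above D1 nuclei, and Pde10a, Arpp21, Foxp1 and Meis2 were below. Meis2 was 120, 68.4 and 263 CPM in the female pools and 139, 126 and 60.5 CPM in the male pools, against 1716 ± 246 CPM in D1 nuclei. Arpp21, a cyclic AMP-regulated phosphoprotein, averaged 331 against 1021 CPM, and the transcription factor gene Foxp1 264 against 851 CPM. Foxp2 did not pass the fold against D1 nuclei, with 2039.6 ± 254 CPM in the main cluster and 1971 ± 281 CPM in D1 nuclei. It was past the fold against D2 nuclei (481 CPM). The olfactory-type G protein gene Gnal (871 against 908 CPM), Rgs9 (613 against 797 CPM) and the adenylyl cyclase gene Adcy5 (581 against 844 CPM) were also not past it. In all Drd3 nuclei the genes below D1 nuclei were Pde10a, Foxp1, Meis2 and Ppp1r1b, and Arpp21 was not past the fold.

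Of the genes that mark D1 and D2 neurons, those measured set main-cluster Drd3 nuclei apart from D2 nuclei, and some of them from D1 nuclei. Isl1, a LIM homeobox factor of the D1 lineage, was 149, 239 and 134 CPM in the female pools and 188, 235 and 160 CPM in the male pools, against 46.2 ± 9.05 CPM in D1 nuclei and 13.1 ± 4.22 CPM in D2 nuclei. Tac1, which encodes substance P, averaged 512 ± 160 CPM, against 375 ± 171 CPM in D1 nuclei and 97.3 ± 33.3 CPM in D2 nuclei. Isl1, Tac1 and the muscarinic receptor gene Chrm4 were past the fold above D2 nuclei, which is 3 of 3 measured D1 genes. Isl1 was the 1 of 3 past it in all Drd3 nuclei. The 4 measured D2 genes, Drd2, the adenosine receptor gene Adora2a, the enkephalin gene Penk and Gpr6, were all past it below D2 nuclei in both sets. Against D1 nuclei, Isl1 was higher and Drd1 and the dynorphin gene Pdyn were lower among 6 measured D1 genes, and in all Drd3 nuclei Isl1 was not past the fold. Pdyn averaged 14.1 CPM in the main cluster and 61.6 CPM in D1 nuclei.

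Drd1 had few counts throughout, with at most 22.9 CPM in any cluster, so its absence from a nucleus says little at this depth. A Drd1 UMI was seen in 3.84% of main-cluster Drd3 nuclei (1.75% thinned) and 3.26% of scattered ones (0.973% thinned), and in 1.05% of oligodendrocyte nuclei (0.453% thinned). For Drd2 the shares were 3.84% in the main cluster (2.02% thinned) and 10.6% among scattered Drd3 nuclei (4.09% thinned), while oligodendrocyte nuclei had 4.98% (2.68% thinned). The Drd2 share of the main cluster was at or below this background.

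Of 18 measured genes for dopamine receptors and the signalling behind them, the selecting gene Drd3 was past the fold above D1 nuclei in the main cluster. In the same comparison 6 were below. Besides Drd1 and Pde10a these were the phosphodiesterases Pde1b (57.2 against 181 CPM), Pde1c (33.2 against 360 CPM), Pde4b (26.0 against 324 CPM) and Pde7b (352 against 1521 CPM). Ppp1r1b, which encodes the dopamine-regulated phosphoprotein DARPP-32, averaged 62.3 ± 19.7 against 148 ± 44.3 CPM and missed the fold in 1 pool. In all Drd3 nuclei, Ppp1r1b was past the fold below D1 nuclei and Pde4b was not.

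Among genes of GABA transmission, the calls fell on receptor subunits. None of 5 measured genes of GABA synthesis, release and uptake was past the fold against D1 or D2 nuclei. Gad1 averaged 400 CPM in the main cluster and 382 CPM in D1 nuclei, and Gad2 662 and 500 CPM. A Gad2 UMI was seen in 57.4% of thinned main-cluster Drd3 nuclei and 49.0% of thinned D1 nuclei. Of 10 measured GABA-A receptor subunits, Gabra5 (9.61 against 50.3 CPM) and Gabrg3 were past the fold below D1 nuclei. Of these, only Gabrg3 was past it in all Drd3 nuclei. Gabrg3 was 116, 226 and 367 CPM in the female pools and 196, 90.2 and 138 CPM in the male pools of the main cluster, against 3378 ± 330 CPM in D1 nuclei.

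Glutamate receptors differed in both directions between the classes. The AMPA subunit Gria2 (4813 against 2198 CPM) was past the fold above D1 nuclei in the main cluster, and 4 of 17 measured were below. The AMPA subunit Gria3 was 14.4, 20.5 and 111 CPM in the female pools and 86.7, 35.4 and 25.9 CPM in the male pools, against 609 ± 58.5 CPM in D1 nuclei. The kainate subunit Grik2 (607 against 3818 CPM) and the metabotropic receptors Grm3 (57.2 against 982 CPM) and Grm5 (708 against 2978 CPM) were the others. Summed over all Drd3 nuclei, Gria2, Gria3 and Grm3 were not past the fold, and Gria3 and Grm3 stood at 227 ± 217 and 335 ± 227 CPM.

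Nos1, the neuronal nitric oxide synthase gene, which also marks a class of striatal interneurons, was high in the main cluster. It was 342, 287 and 242 CPM in the female pools and 271, 187 and 207 CPM in the male pools, against 23.2 ± 6.61 CPM in D1 nuclei. Npy, the peptide gene that marks the same interneurons, had no UMI in main-cluster Drd3 nuclei, and 1 UMI in D1 nuclei. Sst, another peptide gene of these interneurons, was 38.5, 150 and 18.5 CPM in the female pools and 19.9, 74.1 and 56.2 CPM in the male pools, against 30.4 ± 16.9 CPM in D1 nuclei, and its log2 ratio of 0.31 to 1.69 was not past the fold. Of 9 interneuron genes, Nos1 and Sst were the 2 measured. Of 5 eccentric spiny neuron genes, 2 were measured and they differed in opposite directions. The collagen gene Col11a1 averaged 1059 ± 249 CPM in the main cluster against 263 ± 92.7 CPM in D1 nuclei and was past the fold. Otof, the otoferlin gene, averaged 67.8 ± 26.7 against 189 ± 31.7 CPM, with log2 ratios of -2.81 to -0.96, and was past the fold below D1 nuclei in all Drd3 nuclei but not in the main cluster.

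The high Epha3, Hpse and Tll1 follow from the rule, and the other genes of their families did not all share that direction. Of 9 measured ephrin receptors and ephrins, Epha3 was past the fold above D1 nuclei and Epha4, Epha5, Epha7 and the ligand gene Efna5 were below. Epha4 was the 1 of these 4 below in all Drd3 nuclei, and Epha5, Epha7 and Efna5 were not past the fold. Epha4 averaged 70.2 against 374 CPM and Efna5 16.5 against 115 CPM. Of 14 measured genes that build, modify or carry heparan sulfate, Hpse and the sulfotransferase Hs3st5 (376 against 84.6 CPM) were above and the sulfotransferase Hs6st2 (71.9 against 453 CPM) and Gpc6 were below. Of 5 measured tolloid proteases and bone morphogenetic protein genes, only the selecting gene Tll1 was past the fold. None of 7 measured genes of immature neurons was, and Dcx, which encodes doublecortin, averaged 109 CPM in the main cluster and 51.3 CPM in D1 nuclei.

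The share of Drd3 nuclei among kept nuclei was 2.18%, 2.37% and 3.73% in the female pools and 4.05%, 3.29% and 3.08% in the male pools. The sexes overlapped, and the female mean was 2.76% ± 0.84 against a male mean of 3.47% ± 0.51 (SD over 3 pools each, exact 2-sided permutation p = 0.3). The female minus male difference was -0.32 points in set A and -0.91 points in set B. A smallest p of 0.1 is all that 3 against 3 pools allow. Restricted to the main cluster, the shares were 1.61%, 1.91% and 1.70% in the female pools and 2.59%, 2.97% and 2.49% in the male pools, and the sexes did not overlap. This difference of -0.94 points (-0.89 in set A, -0.97 in set B) had the smallest possible exact permutation p of 0.1 and so did not pass 0.05. For scattered Drd3 nuclei the difference had the other sign, with a female mean of 1.01% ± 0.88 and a male mean of 0.79% ± 0.59 (exact permutation p = 0.7). Per 100 D1 and D2 nuclei the female and male means were 16.1 and 20.2 (exact permutation p = 0.2).

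**Figure D4:**
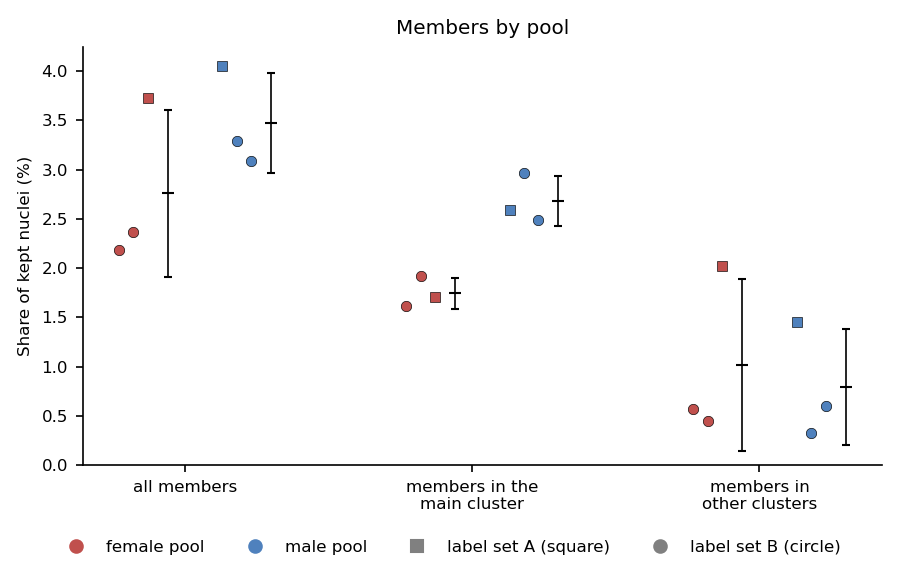
Share of kept nuclei, in percent, that were Drd3 nuclei (members), Drd3 nuclei in the main cluster and Drd3 nuclei in other clusters, by sex. Points are pools with squares for set A, and bars show the mean with its SD. In the main cluster the female pools lie at 1.61% to 1.91% and the male pools at 2.49% to 2.97%.

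The share of Drd3 nuclei with a Drd1 UMI was 2.90%, 0% and 2.76% in the female pools and 5.62%, 3.92% and 4.30% in the male pools. The sexes did not overlap, and the difference of -2.73 points had an exact permutation p of 0.1. Female pool 2 had 0 of 68 nuclei, which allows a share of up to 4.41%. In the main cluster the sexes overlapped, with a difference of -2.10 points (exact permutation p = 0.3). They also overlapped with at least 4 of the 6 genes (3.59% in female pool 3, 2.63% in male pool 3). With Pde10a under 2 UMIs they did so again (3.70% in female pool 1, 2.67% in male pool 3). They did not after thinning to 1500 UMIs, without the highest doublet scores or with at least 1000 UMIs. An Esr1 UMI was seen in 42.0%, 38.2% and 19.5% of Drd3 nuclei in the female pools and 23.6%, 34.3% and 38.7% in the male pools. The female mean was 33.3% ± 12.1 and the male mean 32.2% ± 7.8 (exact permutation p = 1), and set A held the lowest pool of each sex.

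Expression was tested between the sexes in UMI counts summed per pool, with the label set as a term, by edgeR's quasi-likelihood test with Benjamini-Hochberg adjustment. In all Drd3 nuclei 9 of 7711 genes passed an adjusted p of 0.05, 4 higher in females (0.0519%) and 5 lower (0.0648%), and 612 had an unadjusted p under 0.05. In the main cluster 7 of 6035 passed, 2 higher (0.0331%) and 5 lower (0.0829%), and 245 had an unadjusted p under 0.05. On simulated counts for all Drd3 nuclei, the fit recovered 86 of 93 genes changed 4-fold and 25 of 93 changed 2-fold. Even there 2-fold differences were mostly missed, and 4 unchanged genes were called. The simulation gave every gene a dispersion of 0.05 and had no effect of label set or pool. Recovery with the spread of the real pools was not tested.

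The 3 tested Y-linked genes checked the labels. Kdm5d, a histone demethylase gene, was 2.58, 9.74 and 0.848 CPM in Drd3 nuclei of the female pools and 118, 87.9 and 133 CPM in the male pools. Eif2s3y, a translation initiation factor gene, was at most 0.848 CPM in the female pools and 61.7 to 93.3 CPM in the male pools. A feature named Ddx3 in the files behaved likewise, at most 0.565 CPM in females and 79.9 to 103 CPM in males. Of 5 tested X-linked genes known to escape inactivation, none passed, and all 5 fold changes were above 0 (median log2 fold change 0.18). The unnamed features LOC680227 and AABR07039356.2 were higher in females, and AC241873.1 and AC239701.4 were lower. LOC680227 was 3540, 1213 and 289 CPM in the female pools and 7.21, 0 and 0 CPM in the male pools. D1 nuclei held the same order, with 3686, 1290.0 and 326 CPM in the female pools and at most 9.74 CPM in the male pools.

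Outside these features, 2 genes passed in all Drd3 nuclei. Homer1, a postsynaptic scaffold gene with a short form induced by activity, was 336, 268 and 693 CPM in the female pools and 345, 165 and 172 CPM in the male pools, so the sexes overlapped. Its log2 fold change was 0.93 ± 0.18 (SE, edgeR adjusted p = 0.0484), and the difference was 1.01 within set A and 0.83 within set B. In the main cluster Homer1 was 404, 253 and 368 CPM in the female pools and 323, 161 and 156 CPM in the male pools, and it did not pass (log2 fold change 0.65, edgeR adjusted p = 0.608). Lhfpl6 was 62.0, 53.6 and 223 CPM in the female pools and 93.2, 24.0 and 23.7 CPM in the male pools (log2 fold change 1.29 ± 0.23, edgeR adjusted p = 0.0150), and had too few counts in the main cluster to be tested. Homer1 did not pass without any one pool other than female pool 2, and Lhfpl6 did not pass without female pool 3 or without any one male pool. For both genes the highest pool was female pool 3, in which 54.3% of Drd3 nuclei were scattered. In D1 nuclei the log2 fold change was 0.71 for Homer1 (edgeR adjusted p = 0.509) and 0.36 for Lhfpl6 (edgeR adjusted p = 0.762). The difference between the classes was 0.30 for Homer1 and 0.87 for Lhfpl6 on the log2 scale, and neither passed. The Homer1 difference is therefore not shown to be particular to Drd3 nuclei.

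The genes next in order were Grik3, Pex5l, Ndst3, Zfp385b, Myo1d, Cpne8 and Limch1, with higher fitted levels in females, and Col18a1, with a lower one, at edgeR adjusted p from 0.0608 to 0.0960. Grik3, a kainate receptor subunit, was counted mostly outside the main cluster. In scattered Drd3 nuclei it was 256, 84.7 and 161 CPM in the female pools and 93.5, 0 and 9.39 CPM in the male pools, while no main-cluster pool exceeded 20.8 CPM.

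Col18a1, which encodes the basement membrane collagen that yields endostatin, passed in the main cluster. It was 245, 246 and 45.2 CPM in the female pools and 161, 290 and 825 CPM in the male pools. The log2 fold change was -1.39 ± 0.25 (SE, edgeR adjusted p = 0.00259). Within set A the difference was -1.81, and within set B -0.99. The sexes overlapped, and male pool 3 stood far above the others. Without male pool 3, male pool 1 or female pool 3 the gene did not pass, and it passed in 5 of 11 other settings. In D1 nuclei the log2 fold change of Col18a1 was 0.17, and the difference between the classes, -1.39 for all Drd3 nuclei, had an unadjusted p of 0.00621 but an edgeR adjusted p that rounds to 1. After it came Opcml, a cell adhesion gene with a higher fitted level in females (log2 fold change 1.09), and the transporter gene Abcb4 with a lower one (-1.30), both at an edgeR adjusted p of 0.0898. Rbms1 (0.90) was the other gene of the next 8 with a higher level in females, while Slc24a5, Fam81b, Ddx5, Ano3 and Zranb2 had fold changes of -1.33 to -0.71. For Ano3 and Zranb2 the difference was -0.23 and -0.13 in set A, against -1.29 and -1.11 in set B.

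**Figure D5:**
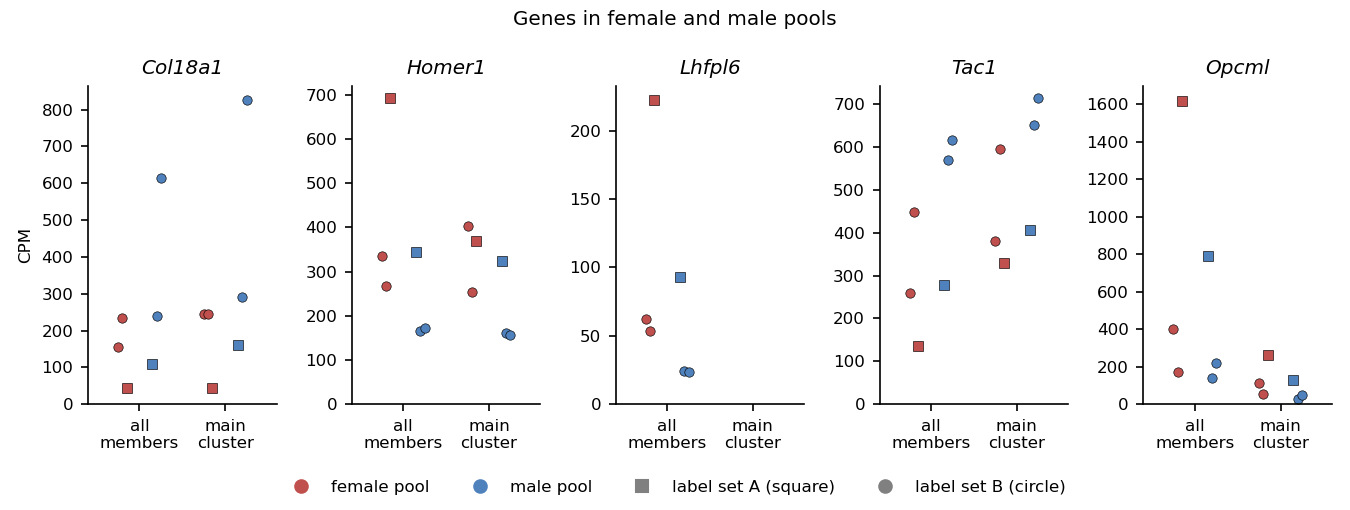
Level in CPM of Col18a1, Homer1, Lhfpl6, Tac1 and Opcml in female (red) and male (blue) pools, for all Drd3 nuclei and for those of the main cluster where tested. Squares are set A pools. Male pool 3 has 825 CPM of Col18a1 in the main cluster, and female pool 3 has 693 CPM of Homer1 in all Drd3 nuclei.

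Few list genes passed for sex. Of 6 tested steroid receptor genes, 19 dopamine signalling genes, 10 ephrin genes and 17 heparan sulfate genes, none passed in all Drd3 nuclei. Homer1 was the 1 of 3 tested immediate early genes that did. Tac1 was 258, 448 and 137 CPM in Drd3 nuclei of the female pools and 277, 570 and 616 CPM in the male pools (log2 fold change -0.87, edgeR adjusted p = 0.114). The sex difference of Drd3 nuclei was also set against that of D1 nuclei in one fit with the pool as a block. No gene passed by edgeR (0 of 7612, or 0.0%) or by DESeq2 (0), and 205 had an unadjusted edgeR p under 0.05. The 3 smallest p-values were those of AABR07039356.2 (-2.66 on the log2 scale), the protein kinase gene Prkd1 (1.03) and Nkain3 (0.84). On counts simulated in the same way, this fit recovered 64 of 92 genes changed 4-fold and 4 of 93 changed 2-fold.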

How the data were processed

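Nuclei were measured with the 10x Genomics 3' kit in 6 libraries. The deposited values are raw UMI counts, one per feature and barcode, made with Cell Ranger 4.0.0 per the file headers, and the submitters' processing notes name genome build rn6. The annotation release and whether counting used strand are not given in the sources used here, so reads of overlapping or antisense genes may be mixed. Each matrix has 32883 features.

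The selecting rule, the class rules and the gene lists were chosen with earlier results of these data known. Named genes were the selecting genes, Pde10a, Esr1, the list genes, the 12 higher and 8 lower genes of each ratio comparison, every gene that passed for sex, the next 8 (3 for the difference between classes), and the 5 most like Drd3. Some items that this rule names are not reported here. Col18a1, Homer1 and Lhfpl6 in D1 nuclei and per setting, and Grik3 by cluster, were added after their values were seen.

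Clusters came from scanpy 1.11.5 (3000 variable genes, 30 principal components, 20 neighbours, Leiden resolution 2, with 37 genes kept out). Resolution 1 was tried first, and 2 was chosen after seeing where Drd3 nuclei fell. Doublets were scored with Scrublet per library and kept. The highest scores, 0.8% per 1000 kept nuclei of the library, were removed in an alternative. Summed counts were tested with edgeR 4.0.16 in R 4.3.3 for genes with at least 10 counts in at least 3 pools, and DESeq2 1.42.0 was the other tool. Both fits were tested on simulated data. Shares were compared by exact permutation over pools (scipy 1.17.1). The Wilson intervals cover counting error only. Replicate numbers do not pair the pools (see the correlations in the closing section). Between pools of 1 sex, counts of Drd3 nuclei differed beyond sampling noise (chi-square over its degrees of freedom, 2.19 to 9.46), so no library was a copy.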

Additional observations from a re-analysis of the deposited data

How the results depend on the processing

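The share of Drd3 nuclei stayed lower in females under every setting tried except among scattered nuclei (0.223 points). Leaving out one pool gave -1.20 to -0.43 points. The difference was -0.67 points after thinning to 1500 UMIs, -0.69 without the highest doublet scores and -0.51 with Pde10a under 2 UMIs. The difference for an Esr1 UMI turned negative with Pde10a under 2 UMIs (-0.634 points) and after thinning (-5.81), and leaving out one pool gave -3.33 to 7.93. For a Drd1 UMI that range was -3.23 to -1.78. Numbers of genes past the fold against D1 nuclei (192 as reported) were 424 in the main cluster, 437 over all its nuclei and 413 at Leiden resolution 1, and 191 to 279 with one pool left out. Against D2 nuclei (214) they were 459, 444 and 448, and 213 to 320. The 9 genes that passed for sex became 67 with no filter on low counts, 4 with the replicate block, 10 with DESeq2, 6 without the label set term, and 3 to 171 with one pool left out, where 171 came without female pool 2 and 4, 5 and 3 without male pools 1, 2 and 3. Homer1 passed in 6 of 18 settings and Lhfpl6 in 7 of 15. In the main cluster the 7 genes became 3 with the replicate block and 2 to 14 with one pool left out, with 14 without female pool 1 and 3 and 2 without male pools 2 and 3. Same-numbered pools had correlations of -0.338, 0.209 and -0.424 over 7711 genes, while the set A pair had 0.683, so the numbers were not used as pairs. For the difference between classes, 1 gene passed without the highest doublet scores and 12 with no filter on low counts. There the fold change of AABR07039356.2 (-2.66) became 0.0676 with at least 4 of the 6 genes and 3.34 in the main cluster. The causes were not tested. Settings with Leiden resolution 1, and the main cluster for shares and for the difference between classes, were chosen after seeing the data. Female pools 1 and 2 and male pools 2 and 3, with 68 to 102 Drd3 nuclei each, limit the precision.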
